A study of Arabidopsis thaliana with 12 samples.

Results

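The RNA of gpl-1 seedlings and wild-type (WT) seedlings, both given ABA, was compared over the 9 gene classes (biotypes) into which the deposited fragment counts are sorted. The groups were taken from the sample records, which put 6 of the 12 libraries of the series in this comparison, 3 from gpl-1 with ABA and 3 from WT with ABA. The plants are Arabidopsis of the Col-0 accession. The gpl-1 allele is a CRISPR–Cas9 disruption of GPL (AT3G47850, chr3:17654129-17656013, minus strand, in the RefSeq TAIR10.1 annotation) and is 1 mutant line. Both groups were grown on MS medium with sucrose at 23 °C under 16 h light and 8 h dark and were exposed to ABA for 2 h, at a concentration not given in the sources used here for this experiment. Seedlings were pooled for each sample, 8 per treatment in the sample records and a larger number in the study's methods. The same genotypes without ABA, again with 3 libraries each, served only to ask whether the genotype difference depended on ABA.

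Abscisic acid (ABA) is the plant hormone that accumulates under drought, closes stomata and reprogrammes transcription through soluble receptors, clade A protein phosphatases and the kinases these hold inactive. GPL is named after GPS2, a subunit of a histone-deacetylase corepressor complex of animals. Whether loss of such a protein changes the RNA of ABA-treated plants is the question the comparison addresses, here for classes of RNA and not for single genes. Protein-coding transcripts carry poly(A) tails and dominate a poly(A)-selected library. Mature ribosomal, transfer, small nuclear and small nucleolar RNAs mostly lack such tails.

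No biotype passed the test of a difference between gpl-1 with ABA and WT with ABA. The largest differences in level were a higher share of rRNA and a lower share of snRNA in gpl-1, and neither passed the test. In whole seedlings, fewer cells of a type and less RNA per cell cannot be told apart. The totals were 32544126, 32675497 and 26660322 fragments in replicates 1, 2 and 3 of gpl-1 with ABA, against 31710048, 32095090 and 24735276 in WT with ABA. In a chi-square test over the biotypes, replicates 1 and 2 gave a chi-square per degree of freedom of 2.31 in gpl-1 with ABA (p = 0.0177) and of 0.815 in WT with ABA (p = 0.589). Against replicate 3, the ratio was 1777 and 1790 in gpl-1 with ABA and 384 and 397 in WT with ABA. Replicates 1 and 2 therefore stood close together and apart from replicate 3, and they were summed and counted as 1 sample in each group (n = 2), also in gpl-1 with ABA, where they differed by slightly more than sampling noise. The sample records do not say whether replicates were separate cultures, so p-values measure only the spread between these samples, which may be technical. The count columns of all 6 gpl-1 libraries are headed "UP", a name that the sample records and methods do not explain. The genotype could not be checked against GPL itself, and the tissue could not be checked against marker genes, since the deposited counts used here are per biotype and values per gene were not analysed here.

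Ribosomal RNA (rRNA), the structural and catalytic RNA of ribosomes, had the highest share of the non-coding classes in replicates 1 and 2 of both groups. In replicate 3 it came after transposable elements in gpl-1 with ABA, and after transposable elements, pseudogenes and ncRNA in WT with ABA. The rRNA row covers 15 exons and 17615 bases, of which 3944 bases are nuclear, 9050 chloroplast and 4621 mitochondrial. The nuclear exons are the 18S and 5.8S genes at chr2:3706-5513, chr2:5782-5945, chr3:14197677-14199484 and chr3:14199753-14199916, all on the plus strand. The 8 chloroplast exons are the 16S, 23S, 4.5S and 5S genes in both copies of the inverted repeat. The copies of 18S differ at 2 of 1808 bases, and every other nuclear or chloroplast pair of copies is identical, so fragments of those pairs cannot be told apart between copies. The 3 short rRNAs are shown as examples of the nuclear and chloroplast exons of the row, most of whose bases belong to the longer 18S, 16S and 23S genes. They are given 5′ to 3′ from RefSeq TAIR10.1, at chr3:14199753-14199916 (plus strand) for 5.8S, and on the chloroplast genome at 107599 to 107701 (plus strand) for 4.5S and 130580 to 130700 (minus strand) for 5S. No letters are marked.
5.8S rRNA, AT3G41979: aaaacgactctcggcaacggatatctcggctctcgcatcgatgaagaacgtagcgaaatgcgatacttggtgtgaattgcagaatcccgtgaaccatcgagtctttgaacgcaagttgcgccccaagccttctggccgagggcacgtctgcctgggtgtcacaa
4.5S rRNA, chloroplast: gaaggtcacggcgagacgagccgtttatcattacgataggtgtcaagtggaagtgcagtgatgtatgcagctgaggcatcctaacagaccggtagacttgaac
5S rRNA, chloroplast: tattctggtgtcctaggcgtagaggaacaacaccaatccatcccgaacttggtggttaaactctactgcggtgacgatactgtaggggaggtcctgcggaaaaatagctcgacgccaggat

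The rRNA share was 2304, 2326 and 1303 counts per 1000000 fragments (CPM) in replicates 1, 2 and 3 of gpl-1 with ABA, against 1537, 1535 and 1115 CPM in WT with ABA. Each gpl-1 library exceeded the WT library of the same number, but replicate 3 of gpl-1 lay below replicates 1 and 2 of WT, so the groups overlapped. The replicate numbers are not said to pair libraries of the genotypes. The 95% Wilson interval in replicate 1 was 2288 to 2321 CPM in gpl-1 with ABA and 1523 to 1550 CPM in WT with ABA. These intervals cover counting error only and are far narrower than the distance to replicate 3. The means were 1809 ± 716 CPM in gpl-1 with ABA and 1325 ± 298 CPM in WT with ABA (SD, n = 2 each). Within replicates 1 and 2 the rRNA share was 1.51-fold that of WT, and within replicate 3 it was 1.17-fold. In edgeR's quasi-likelihood test, the log2 difference was 0.45 ± 0.59 (SE; adjusted p = 0.929), with a 95% interval of 0.468- to 3.98-fold. The data thus allow both a lower and a several-fold higher rRNA share in gpl-1.

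Counts outside the protein-coding class, summed over the 8 other biotypes, came to 7711 CPM in replicates 1 and 2 and 5633 CPM in replicate 3 of gpl-1 with ABA, against 5931 and 5710 CPM in WT with ABA. Of these, rRNA made up 30.0% and 23.1% in gpl-1 with ABA and 25.9% and 19.5% in WT with ABA. Protein-coding genes took 99.2%, 99.2% and 99.4% of fragments in gpl-1 with ABA, against 99.4% in each of the 3 WT libraries with ABA. Their log2 difference was -0.0012 ± 0.023 (SE; edgeR, adjusted p = 0.959). Rises and falls of single genes within a class cancel in such a total and were not resolved.

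**Figure D1:**
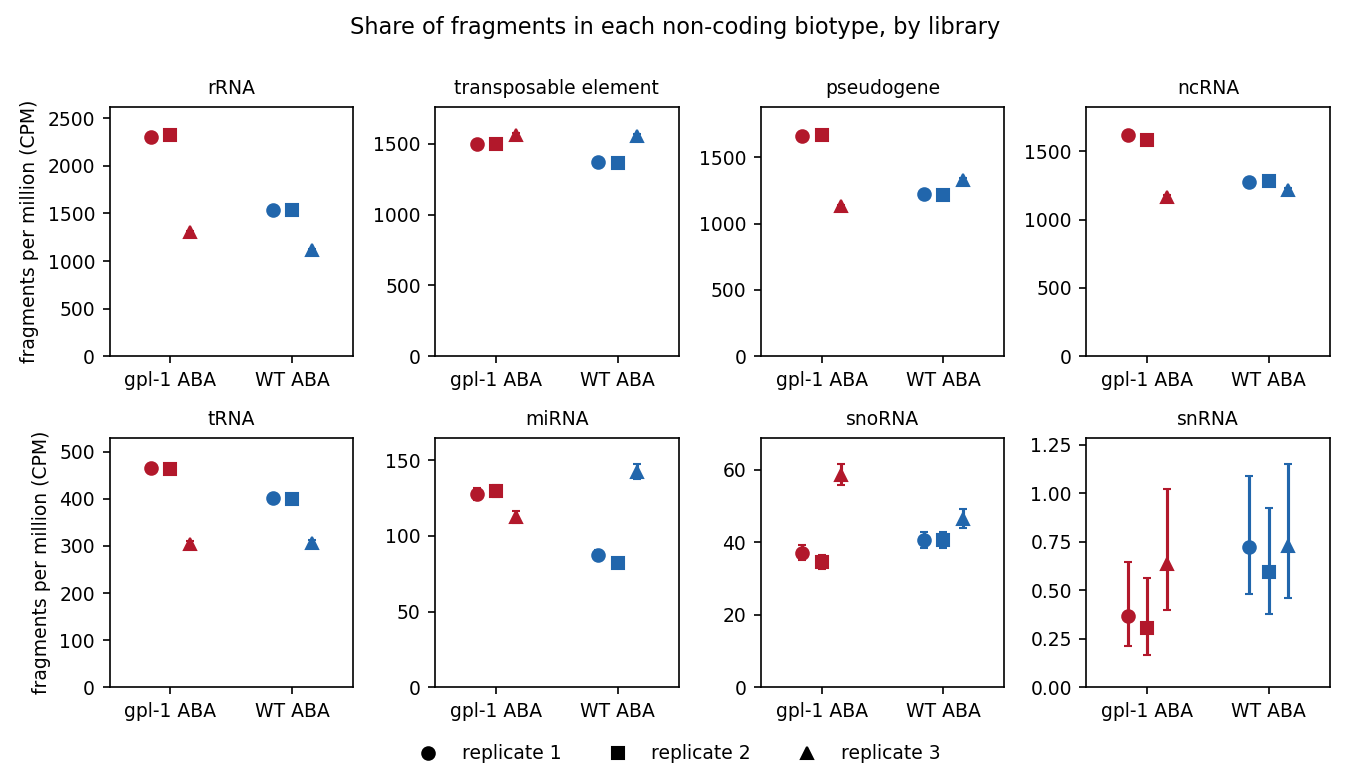
Share of each non-coding biotype (CPM, vertical axes from 0) in replicates 1, 2 and 3 of gpl-1 with ABA (red, left) and WT with ABA (blue, right), with 95% Wilson intervals that cover counting error only. Replicates 1 and 2 sit together in every panel but that of snRNA, where the intervals are wide, and the groups overlap in all 8 panels.

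Small nuclear RNA (snRNA), the RNA part of the spliceosome, was the class with the lowest counts. There were 12, 10 and 17 fragments in replicates 1, 2 and 3 of gpl-1 with ABA, against 23, 19 and 18 in WT with ABA. This gave 0.369, 0.306 and 0.638 CPM in gpl-1 with ABA and 0.725, 0.592 and 0.728 CPM in WT with ABA, so that replicate 3 of gpl-1 fell between the WT libraries. Within replicates 1 and 2 the share in gpl-1 was 0.512-fold that of WT, from 22 against 42 fragments, with a counting interval of 0.306 to 0.858. Within replicate 3 the log2 difference was -0.19, from 17 against 18 fragments, with a counting interval of -1.15 to 0.77 that includes 0. The edgeR log2 difference was -0.58 ± 0.45 (SE; adjusted p = 0.929), with a 95% interval of 0.291- to 1.53-fold.

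The snRNA row covers 13 exons of 162 to 916 bases. Of these, 8 matched a RefSeq TAIR10.1 gene, 5 of them genes of U2, which pairs with the intron branch point, and the others those of U12, U6acat and a U6 gene. Protein-coding exons overlap 23.6% of the bases of the row, and counting ignored strand. The U12 gene (AT1G61275, chr1:22603121-22603295, plus strand) is shown as an example of the row because it is short. It is an RNA of the minor spliceosome, which removes a rare class of introns, and lies in the row at the full length of its RefSeq gene.
U12 snRNA, AT1G61275: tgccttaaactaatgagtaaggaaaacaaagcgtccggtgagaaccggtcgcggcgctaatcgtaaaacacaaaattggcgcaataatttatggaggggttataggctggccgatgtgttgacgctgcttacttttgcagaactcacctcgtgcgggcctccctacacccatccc

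MicroRNA (miRNA) exons, whose products guide the cleavage or translational repression of target mRNAs, had the widest gap between the genotype differences of the replicate sets, 0.60 within replicates 1 and 2 and -0.34 within replicate 3 on the log2 scale. They held 128, 130 and 113 CPM in replicates 1, 2 and 3 of gpl-1 with ABA, against 87.4, 82.4 and 143 CPM in WT with ABA. In gpl-1 the 3 libraries were close, whereas in WT replicate 3 was the highest of all 6 libraries. The share in gpl-1 was 1.51-fold that of WT within replicates 1 and 2 and 0.790-fold within replicate 3. The means were 121 ± 11.3 CPM in gpl-1 with ABA and 114 ± 40.7 CPM in WT with ABA (SD, n = 2 each), with an edgeR log2 difference of 0.09 ± 0.28 (SE; adjusted p = 0.929). The 191 miRNA exons have a median of 126 bases, longer than a mature miRNA, and the row counts fragments anywhere in these exons.

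Transfer RNA (tRNA), the adaptor of translation, had 466, 463 and 304 CPM in replicates 1, 2 and 3 of gpl-1 with ABA, against 403, 400.0 and 306 CPM in WT with ABA. Replicate 3 was the lowest library of each group, and there the groups differed by -0.01 on the log2 scale. Of the 697 tRNA exons, 45 lie on the chloroplast and 21 on the mitochondrial genome, and all are shorter than the 150-base reads. Small nucleolar RNA (snoRNA), which guides the chemical modification of rRNA, had 37.0, 34.4 and 58.5 CPM in gpl-1 with ABA against 40.6, 40.6 and 46.5 CPM in WT with ABA. Its log2 difference was -0.19 within replicates 1 and 2 and 0.33 within replicate 3, and 69 of its 71 exons are shorter than 150 bases. With edgeR the log2 differences were 0.12 ± 0.51 for tRNA and 0.11 ± 0.25 for snoRNA (SE; adjusted p = 0.929 each).

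Transposable elements are mostly held silent by DNA and histone methylation. Their exons had 1503, 1499 and 1559 CPM in replicates 1, 2 and 3 of gpl-1 with ABA, against 1369, 1368 and 1557 CPM in WT with ABA. The means were 1530 ± 41.4 CPM in gpl-1 with ABA and 1463 ± 133 CPM in WT with ABA (SD, n = 2 each). Its log2 difference was 0.13 within replicates 1 and 2 and 0.0026 within replicate 3, and the 95% interval of the edgeR fit, 0.847- to 1.29-fold, was the narrowest of the 8 non-coding classes. Pseudogenes, disabled gene copies, had 1662, 1666 and 1130 CPM in gpl-1 with ABA against 1222, 1214 and 1326 CPM in WT with ABA, so gpl-1 held both the highest and the lowest libraries. Other non-coding RNA (ncRNA), which includes long and antisense transcripts, had 1618, 1585 and 1166 CPM in gpl-1 with ABA against 1279, 1283 and 1216 CPM in WT with ABA, with the same crossing. The edgeR log2 differences were 0.13 ± 0.32 for pseudogenes and 0.15 ± 0.25 for ncRNA (SE; adjusted p = 0.929 each). Protein-coding exons cover 47.0% of the bases of the ncRNA row, and without strand the reads of an antisense ncRNA and its partner cannot be told apart.

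**Figure D2:**
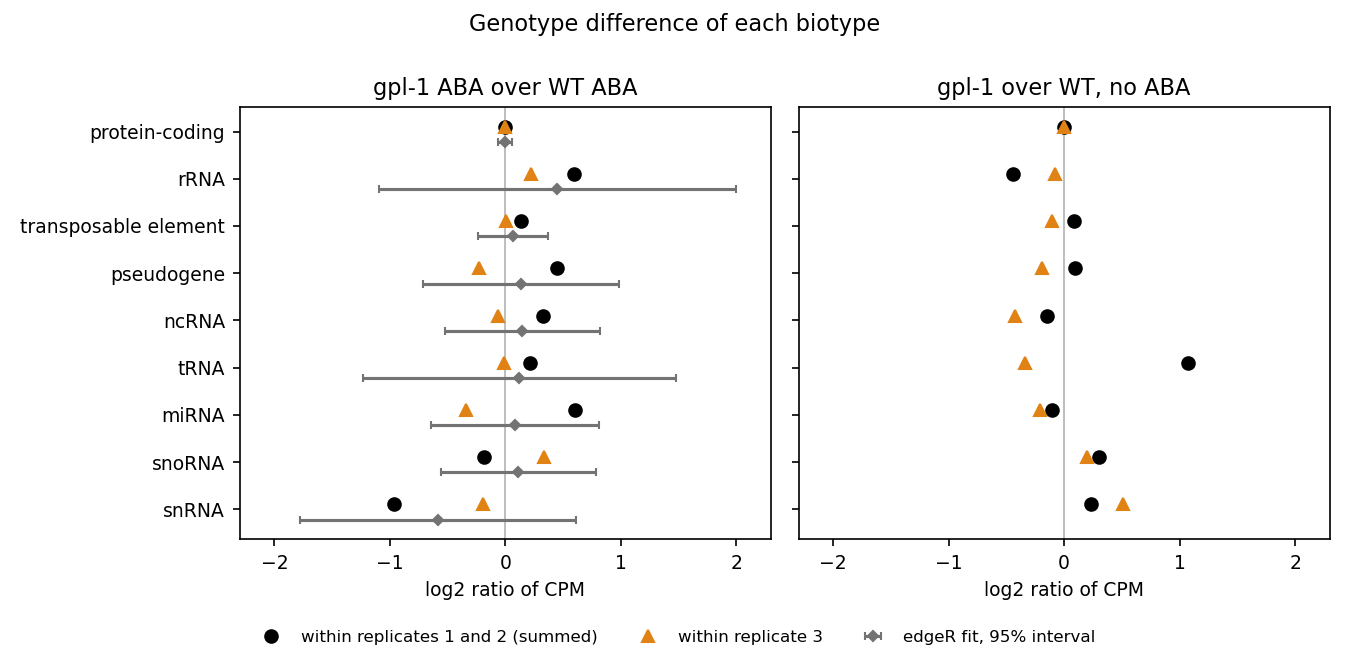
Log2 ratio of CPM for each of the 9 biotypes (horizontal axis), gpl-1 over WT with ABA on the left and without ABA on the right, within replicates 1 and 2 summed (circles) and within replicate 3 (triangles). Grey diamonds with bars are the edgeR log2 difference with its 95% interval. All 9 intervals include 0, and with ABA the circle and the triangle lie on the same side of 0 for rRNA, transposable elements and snRNA. The triangles of transposable elements (0.0026) and snRNA (-0.19) with ABA are within counting error of 0.

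Over the 9 biotypes, edgeR called 0 (0% of those tested) at an adjusted p under 0.05, and 0 had an unadjusted p under 0.05. DESeq2 and limma on log2 CPM also called 0, likewise with 0 at an unadjusted p under 0.05. The difference had the same sign within replicates 1 and 2 and within replicate 3 in 3 of the 9 biotypes, rRNA, transposable elements and snRNA, and the other sign in 6. Libraries were matched by replicate number here, which is not said to mark a shared batch. With replicate 3 of 1 genotype set against replicates 1 and 2 of the other, only snRNA of these 3 kept its sign. For rRNA, gpl-1 then had 2315 against 1115 CPM and 1303 against 1536 CPM. For transposable elements it had 1501 against 1557 CPM and 1559 against 1368 CPM. Within replicate 3 the counting interval of the log2 difference included 0 for transposable elements (-0.017 to 0.023) and snRNA (-1.15 to 0.77). The same held for tRNA (-0.055 to 0.035) and protein-coding genes (-0.00068 to 0.00090). The replicate 3 signs of these classes therefore lay within counting error. Of the 8 non-coding classes, 6 were higher and 2 lower in gpl-1 within replicates 1 and 2, against 3 higher and 5 lower within replicate 3. In all 9 biotypes the 3 gpl-1 libraries overlapped the 3 WT libraries. A two-sided exact permutation test cannot give a p below 0.33 with 2 samples against 2, or below 0.10 with 3 libraries against 3. DESeq2, fitted with its own size factors, shifted the median biotype by -0.16 on the log2 scale and put protein-coding genes at -0.16, a shift common to the biotypes, so differences of that size or smaller have no direction apart from the scaling.

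Replicates of the same group also stood apart. In gpl-1 with ABA, replicate 3 differed from replicates 1 and 2 by -0.83 (rRNA), -0.61 (tRNA), -0.56 (pseudogenes), 0.71 (snoRNA) and 0.92 (snRNA) on the log2 scale. In WT with ABA the same differences were -0.46 (rRNA), -0.39 (tRNA), 0.12 (pseudogenes), 0.20 (snoRNA) and 0.15 (snRNA), and that of miRNA was 0.75. In 8 of the 9 biotypes, all but snRNA, the larger of these within-group differences exceeded the larger genotype difference of libraries matched by number.

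**Figure D3:**
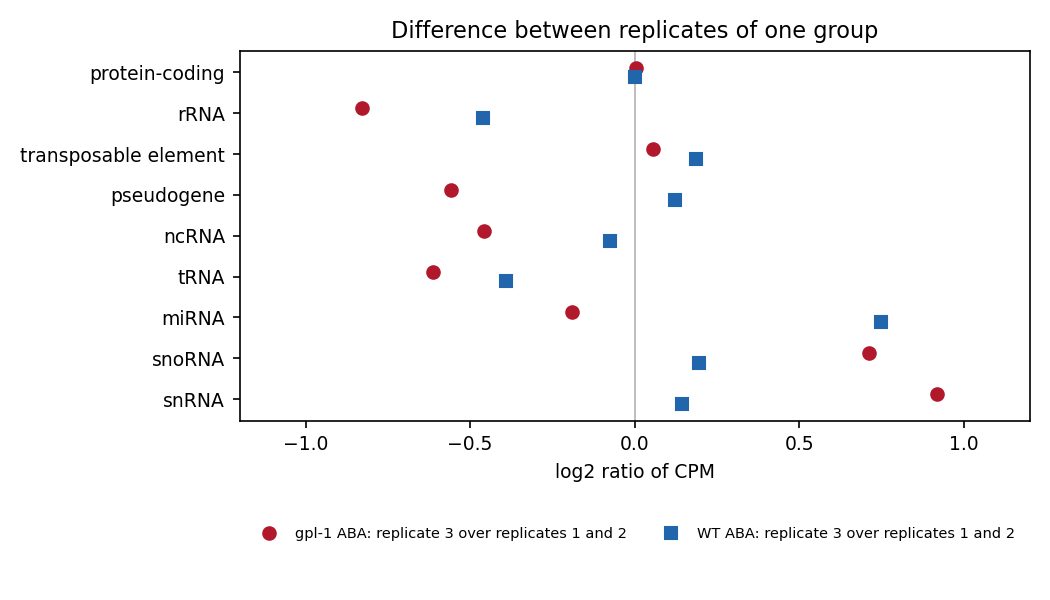
Log2 ratio of CPM of replicate 3 over replicates 1 and 2 of the same group (horizontal axis) for each of the 9 biotypes, gpl-1 with ABA as red circles and WT with ABA as blue squares. Values run from -0.83 (rRNA) to 0.92 (snRNA) in gpl-1 with ABA and from -0.46 (rRNA) to 0.75 (miRNA) in WT with ABA, and the 2 groups fall on opposite sides of 0 for miRNA and pseudogenes.

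To compare levels between classes, counts were divided by exon length and library total, as fragments per kb of exon and per 1000000 fragments. These are levels in libraries of polyadenylated RNA, and mature rRNA, tRNA, snRNA and snoRNA mostly lack poly(A) tails. All 697 tRNA exons and 69 of 71 snoRNA exons are also shorter than the 150-base reads. The order of the classes is therefore not an order of RNA amounts in the seedlings. On this scale rRNA was the highest class, at 103 ± 40.6 in gpl-1 with ABA and 75.2 ± 16.9 in WT with ABA (SD, n = 2 each, as for the levels that follow). Protein-coding exons followed at 24.1 ± 0.036 in gpl-1 with ABA and 24.2 ± 0.0038 in WT with ABA. Next came tRNA, at 7.96 ± 2.35 in gpl-1 with ABA and 7.32 ± 1.39 in WT with ABA, and snoRNA, at 6.42 ± 2.20 and 5.93 ± 0.567, and this pair did not differ beyond its spread. The levels of miRNA were 3.35 ± 0.314 in gpl-1 with ABA and 3.16 ± 1.13 in WT with ABA, and those of ncRNA were 3.22 ± 0.718 and 2.91 ± 0.107, again within the spread of each other. Pseudogenes stood at 1.59 ± 0.430 in gpl-1 with ABA and 1.45 ± 0.0870 in WT with ABA. Transposable elements were near the bottom at 0.169 ± 0.0046 in gpl-1 with ABA and 0.162 ± 0.015 in WT with ABA. Their counts were divided by the 9051642 bases that their 6260 exons span. The lowest level was that of snRNA, 0.0574 ± 0.025 in gpl-1 with ABA and 0.0816 ± 0.0058 in WT with ABA. With the same counts divided only by the length that no other biotype shares, the ncRNA level was 6.41 ± 1.43 in gpl-1 with ABA and 5.78 ± 0.213 in WT with ABA. The miRNA level was then 3.86 ± 0.362 in gpl-1 with ABA and 3.64 ± 1.30 in WT with ABA. On that length ncRNA thus stood above miRNA, beyond the spread of each, so their closeness depends on the length used.

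**Figure D4:**
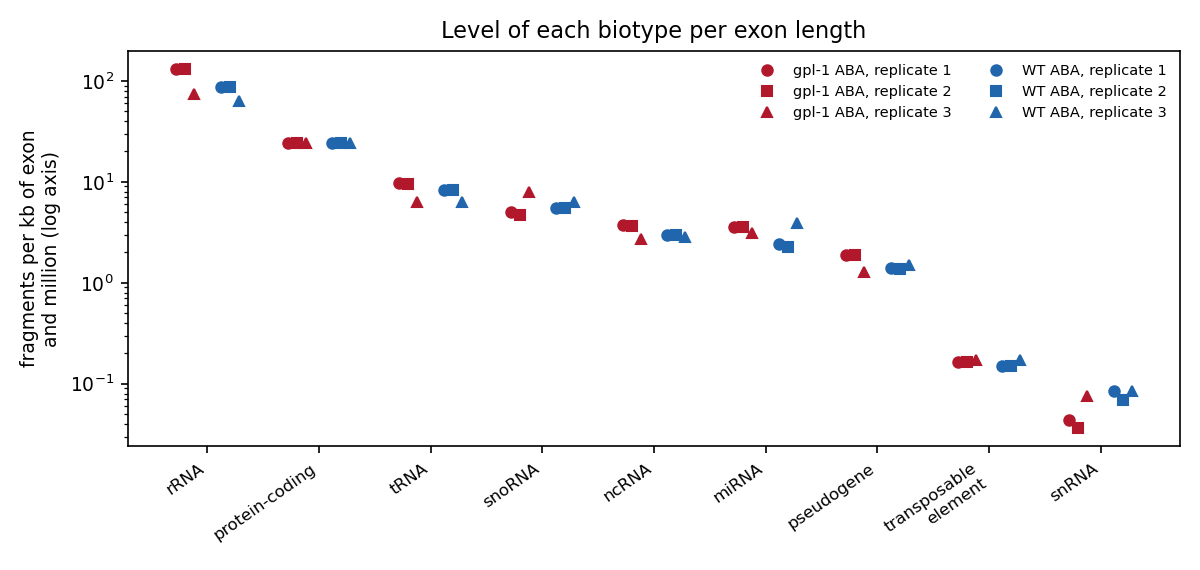
Fragments per kb of exon and per 1000000 fragments (vertical axis, log scale) of the 9 biotypes in each library of gpl-1 with ABA (red, left of each pair) and WT with ABA (blue, right). The classes keep a similar order in both groups, rRNA at the top near 103 and 75.2 on average and snRNA at the bottom near 0.0574 and 0.0816.

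The genotype difference was then compared with that of the same genotypes without ABA. With ABA the log2 difference of rRNA was 0.59 within replicates 1 and 2 and 0.22 within replicate 3, against -0.45 and -0.07 without ABA. For snRNA it was -0.96 and -0.19 with ABA, against 0.23 and 0.51 without ABA. With libraries matched by replicate number, both classes thus had opposite signs with and without ABA in both sets of replicates. Matched in this way, 0 of the 9 biotypes had the same sign in all 4 differences. The snRNA difference within replicate 3 with ABA lay within counting error. Without ABA, snRNA had 40 fragments in gpl-1 against 31 in WT within replicates 1 and 2, and 27 against 18 within replicate 3. There the 95% Wilson intervals of gpl-1 and WT overlapped in every replicate, in replicate 3 at 0.706 to 1.49 and 0.457 to 1.14 CPM. The change of sign of snRNA therefore rests on few fragments. The interaction itself was not significant: edgeR called 0 of 9 biotypes (0% of those tested), 0 had an unadjusted p under 0.05, and DESeq2 and limma on log2 CPM also gave 0 on both counts. The log2 difference of differences, with ABA minus without, was 0.77 ± 0.83 for rRNA (SE; edgeR, adjusted p = 0.926) and -0.97 ± 0.63 for snRNA (SE; edgeR, adjusted p = 0.926). A dependence of the genotype difference on ABA was therefore not detectable with 2 samples per group. The 95% interval for rRNA, 0.376- to 7.77-fold, leaves a wide range. The effect of ABA itself on the biotype shares was not tested.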

How the data were processed

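Polyadenylated RNA of pooled seedlings was sequenced as paired ends. The authors trimmed reads with Trim Galore, aligned them with Bowtie2 (build TAIR10) and counted with featureCounts 2.0.1, giving 1 row for each gene biotype, with fragments counted over exons without strand although the library kit was directional, both mates mapped, chimeric pairs left out and duplicates kept. The deposited values are raw counts. The totals were 24735276 to 34329165 fragments over the 12 libraries. The exon lengths listed beside the counts, in another column, were used for levels per kb.

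Replicates 1 and 2 of each group were summed. The 9 biotypes were fitted over all 4 groups (8 samples, 4 residual degrees of freedom) with edgeR 4.0.16 (R 4.3.3), using the library total as size and Benjamini-Hochberg adjustment over the 9 biotypes. Every biotype is named in the text. Alternatives were DESeq2 1.42.0, limma 3.58.1, TMM, a total without rRNA, a minimum mean of 100 counts, the ABA groups alone, every library as a sample, a replicate block and each library left out. Python 3.11.15 with pandas 2.3.3 and scipy 1.17.1 made the other values. Exons of nuclear chromosomes matched RefSeq TAIR10.1 at start, end and strand in 82.6% to 83.4% of protein-coding cases, whereas mitochondrial coordinates did not match and no mitochondrial sequence was used. Values per gene were not analysed here. The comparison and its lists were chosen with earlier results of these data known.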

Additional observations from a re-analysis of the deposited data

How the results depend on the processing

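Under all 20 alternatives of the genotype comparison with ABA, and all 19 of its dependence on ABA, 0 biotypes were called. The lowest adjusted p of the genotype comparison was 0.454, with every library as its own sample, and leaving out single libraries gave a lowest adjusted p of 0.476 and counts of calls of 0 to 0. For the dependence on ABA the lowest was 0.384 when single libraries were left out, with 1 biotype (snoRNA) at an unadjusted p of 0.0426 without gpl-1 ABA replicate 3.

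The replicate numbers are not said to mark a shared batch. The difference between replicate 3 and replicates 1 and 2 correlated between gpl-1 with ABA and WT with ABA at r = 0.46 across the 8 non-coding biotypes, which come from the same libraries and are not independent. With the replicate number as a block, edgeR called 0 biotypes in both comparisons. The lowest adjusted p was then 0.520 with ABA (snRNA, -0.63 ± 0.23 on the log2 scale) and 0.340 for the dependence on ABA. The latter was shared by snRNA, rRNA and ncRNA, with unadjusted p of 0.0418, 0.0933 and 0.113 in this edgeR fit.

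The log2 difference stayed above 0 for rRNA (0.24 to 0.80) and below 0 for snRNA (-1.02 to -0.47) in every alternative that gave them a value. Many of these could hardly move it. Leaving out a library without ABA kept rRNA at 0.45 and snRNA at -0.60 to -0.58, since those groups do not enter the comparison. Leaving out replicate 1 or 2 of an ABA group kept its close partner, and rRNA stayed at 0.44 to 0.45. Leaving out gpl-1 ABA replicate 3 put snoRNA at -0.29, and leaving out WT ABA replicate 3 put tRNA at -0.06. With DESeq2 and its own size factors, 8 biotypes lay below 0, against 2 in the main fit. No gene-level statement is possible from these counts, and differences inside a class cancel in its total.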
